A study of Mus musculus with 6 samples.

Results

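The MAP kinase phosphatases of the DUSP family were taken as 10 genes, chosen by name: the ERK-selective Dusp5, Dusp6, Dusp7 and Dusp9, and the broader Dusp1, Dusp2, Dusp4, Dusp8, Dusp10 and Dusp16. The choice was made with earlier results of these data known, so counts of members beside shares of all genes are descriptions. All 10 were on the array, with 18 probe sets that named a single one of them, out of 18194 named genes in all. These enzymes remove phosphate from both the threonine and the tyrosine in the activation loop of a MAP kinase and so switch it off. Many are themselves transcribed in response to the kinases they inactivate, which makes them feedback regulators. Dusp6, Dusp7 and Dusp9 encode cytoplasmic enzymes and Dusp5 a nuclear enzyme, all with a preference for ERK. Dusp1, Dusp2 and Dusp4 encode nuclear enzymes that act on ERK, JNK and p38 to different degrees, and Dusp8, Dusp10 and Dusp16 act mainly on JNK and p38. In granulosa cells, the ovulatory surge of luteinizing hormone raises cAMP and activates ERK1 and ERK2.

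RNA came from ovarian granulosa cells of mice aged 23 days primed with 5 IU of eCG (equine chorionic gonadotropin) for 48 h so that their follicles grew. Knockout mice (KO) lacked ERK1 and carried a floxed ERK2 gene with the Cyp19CRE transgene (genotype label ERK1 knockout and ERK2 fl/fl;Cyp19CRE), and the other mice were labelled wild type (WT). In KO, loss of ERK2 thus depends on the aromatase promoter that drives Cre, while ERK1 is absent from all cells. In each genotype, 1 array was made at 0 h (no human chorionic gonadotropin, hCG), 1 at 2.5 h and 1 at 4 h after an ovulatory dose of 5 IU of hCG, a luteinizing hormone receptor agonist. The design asks how transcripts responded to hCG with and without the 2 kinases. With 1 array per genotype and time there was no replicate error, and the labels do not say whether an array held RNA of 1 animal or a pool. Genotypes were taken from the labels and were not checked in the expression values.

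Promoter windows are shown for members that stood lower in KO after hCG (Dusp5, Dusp6, Dusp1, Dusp10) and for those that stood higher (Dusp8, Dusp16), so that their upstream letters can be set side by side. RefSeq windows (GRCm38.p6) were found for 8 of the 10 members, all but Dusp4 and Dusp9, and the 250 bases before the annotated start are printed 5′ to 3′ on the gene's strand. Capitals mark any match, on either strand, to the core of a cAMP response element (TGACGT), the CArG box that serum response factor binds, the AP-1 site TGANTCA or the ETS site CGGAAG; the palindromic cAMP response element TGACGTCA holds the core on both strands, and such overlaps were counted as 1 palindrome. Dusp5 lies at chr19:53528895-53529144 (plus strand), Dusp6 at chr10:99262981-99263230 (plus), Dusp1 at chr17:26508473-26508722 (minus), Dusp10 at chr1:184034131-184034380 (plus), Dusp8 at chr7:142095285-142095534 (minus) and Dusp16 at chr6:134792629-134792878 (minus).
Dusp5: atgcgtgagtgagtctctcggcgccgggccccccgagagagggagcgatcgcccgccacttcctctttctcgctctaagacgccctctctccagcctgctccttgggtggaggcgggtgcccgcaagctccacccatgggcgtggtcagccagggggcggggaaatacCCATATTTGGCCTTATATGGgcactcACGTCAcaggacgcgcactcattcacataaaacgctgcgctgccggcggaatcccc
Dusp6: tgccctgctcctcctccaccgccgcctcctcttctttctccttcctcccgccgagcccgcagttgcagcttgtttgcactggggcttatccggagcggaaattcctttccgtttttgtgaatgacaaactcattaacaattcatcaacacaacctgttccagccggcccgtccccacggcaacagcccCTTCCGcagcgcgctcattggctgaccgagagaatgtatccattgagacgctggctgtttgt
Dusp1: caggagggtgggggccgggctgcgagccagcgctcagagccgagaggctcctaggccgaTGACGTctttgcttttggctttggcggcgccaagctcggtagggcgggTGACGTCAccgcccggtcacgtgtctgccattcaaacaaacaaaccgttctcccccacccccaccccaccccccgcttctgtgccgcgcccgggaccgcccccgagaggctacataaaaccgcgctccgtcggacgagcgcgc
Dusp10: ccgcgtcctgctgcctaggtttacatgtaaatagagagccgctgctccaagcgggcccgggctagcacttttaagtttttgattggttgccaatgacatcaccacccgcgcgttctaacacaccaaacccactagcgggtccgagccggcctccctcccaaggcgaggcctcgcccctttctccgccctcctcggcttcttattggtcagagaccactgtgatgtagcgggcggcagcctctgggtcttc
Dusp8: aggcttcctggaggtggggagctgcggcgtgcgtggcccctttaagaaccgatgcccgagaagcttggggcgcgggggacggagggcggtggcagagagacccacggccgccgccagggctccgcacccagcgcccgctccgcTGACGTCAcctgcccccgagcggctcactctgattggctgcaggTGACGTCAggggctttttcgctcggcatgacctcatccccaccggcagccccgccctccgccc
Dusp16: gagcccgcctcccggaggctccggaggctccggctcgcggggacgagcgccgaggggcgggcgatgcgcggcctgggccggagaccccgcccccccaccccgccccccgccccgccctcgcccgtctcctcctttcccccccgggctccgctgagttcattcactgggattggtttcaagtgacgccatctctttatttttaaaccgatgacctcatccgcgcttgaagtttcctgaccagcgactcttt

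The window of Dusp8 held 2 palindromic elements, at bases -107 to -100 and -63 to -56 from the start, and that of Dusp1 held 1, at -143 to -136, with a further core at -191 to -186. Of 32851 promoter windows of this length, 508 (1.55%) held a palindromic element and 10 held 2 or more. The Dusp5 window held 2 adjoining CArG boxes, at -82 to -73 and -72 to -63, and a core at -56 to -51. A CArG box was in 1.47% of all windows, 6 windows held 2 or more, and the core was in 6.47%. In the Dusp6 window only an ETS match was found, at -62 to -57, a motif in 13.6% of windows. The windows of Dusp16, Dusp2, Dusp7 and Dusp10 held none of these letters, nor did any of the 8 windows hold the AP-1 site, which was in 6.75% of all. A match is a description of the letters and not evidence of binding.

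Values are RMA intensities, a background-corrected and quantile-normalized probe set summary, on a linear scale, and differences are given on the log2 scale. Each gene was represented by its brightest probe set over the 6 arrays. A mean log2 of at least 6 (intensity 64, just above the array medians of 54 to 55) was taken as the floor, which 8 of the 10 members and 11153 of all genes reached. Dusp2 and Dusp9 stayed under it, and Dusp4 reached it only through its WT arrays. A difference between a pair of arrays was counted when it was at least 2-fold with the brighter array at 64 or more. Quantile normalization gives each array the same distribution, which hides any shift in RNA content per cell, and in bulk RNA fewer cells of a type cannot be told apart from less RNA per cell.

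All of 11 measured granulosa genes were over the floor. Their summed intensities were 119693, 149291 and 145030 in KO at 0 h, 2.5 h and 4 h, and 125970, 97340 and 75108 in WT. On each array these were the largest sums of the cell type marker lists. Over the floor were also 14 of 15 oocyte, 9 of 11 theca and stromal and 9 of 14 macrophage and leukocyte markers. The summed intensity of 15 oocyte markers was 41718 in KO and 22849 in WT at 0 h, and 15771 to 18092 in KO and 14240 to 15106 in WT after hCG. That of 11 endothelial markers was 933 to 1037 in KO and 1026 to 1681 in WT, with 5 over the floor. Sums of 14 macrophage and leukocyte markers ran from 3815 to 4180 in KO and from 3868 to 4787 in WT, and those of 11 theca and stromal markers from 19696 to 28972 in KO and from 14431 to 21034 in WT. The rise of the theca and stromal sum in KO after hCG came from Cyp17a1, an enzyme of androgen synthesis. Cyp17a1 read 1845, 14251 and 13997 in KO and 1994, 2037 and 1399 in WT. Without it the sums were 17851, 12429 and 14975 in KO and 19040, 14382 and 13032 in WT, a split chosen after seeing the values. The part of these differences in the results on the members was not tested. The Gapdh signal at the 3′ end over that at the 5′ end reflects RNA integrity. This ratio was 5.21, 3.99 and 4.24 in KO at 0 h, 2.5 h and 4 h, and 4.79, 3.55 and 4.01 in WT. It was higher in KO at each time and highest at 0 h in both genotypes. Its part in the results was not tested. KO minus WT had a median over genes past the floor of 0.14 (log2) at 2.5 h and 0.20 at 4 h, and WT at those times minus 0 h had medians of -0.22 and -0.21. Cyclic loess moved these to -0.01, 0.03, -0.04 and -0.05, and changed the split of all genes called higher and lower to 465 and 42 (367 and 112 without it) in WT at 2.5 h and to 678 and 661 (548 and 1016) at 4 h. For KO against WT the splits became 109 higher and 392 lower (161 and 307) at 2.5 h and 347 and 472 (558 and 392) at 4 h.

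**Figure D1:**
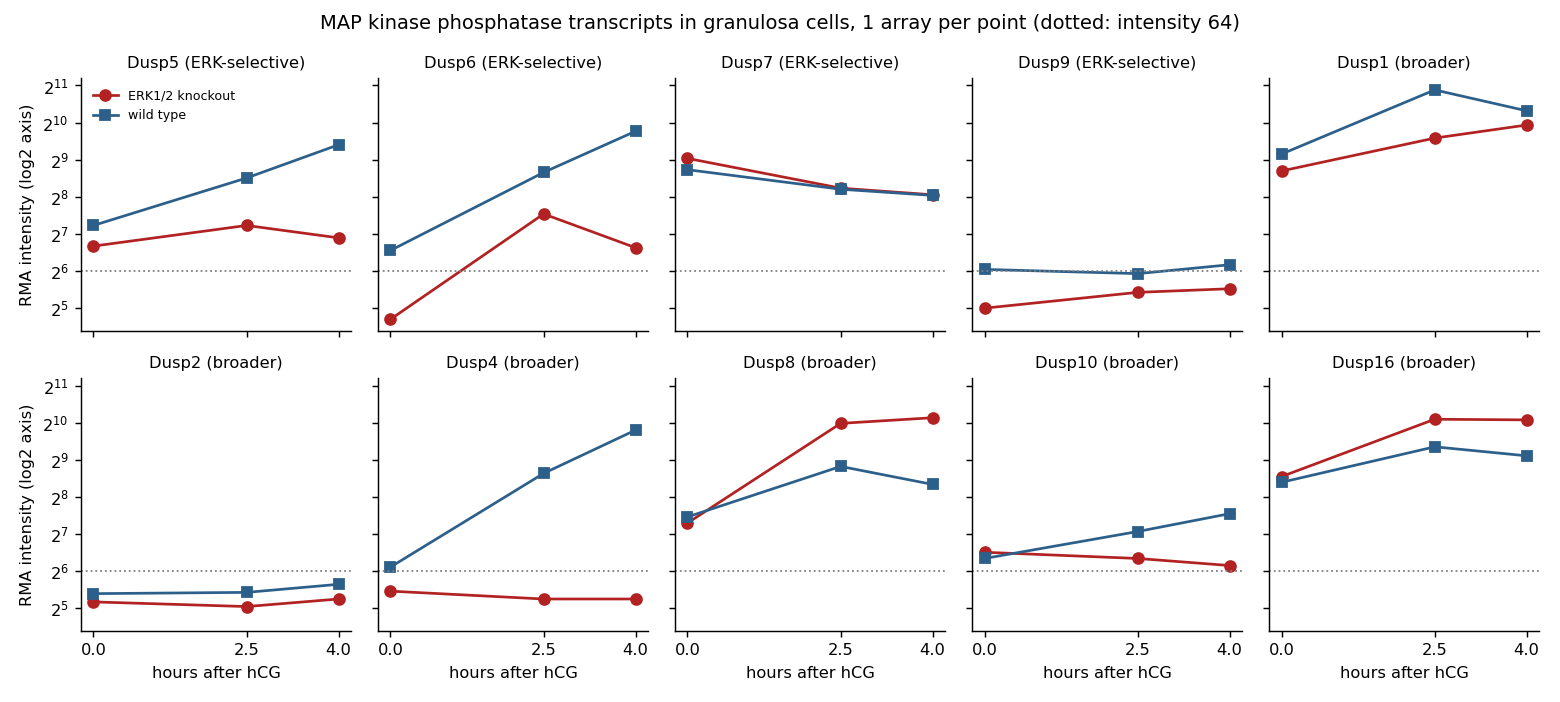
Intensity (log2 axis) of each member's brightest probe set against hours after hCG, with KO in red and WT in blue and 1 array per point. At 4 h Dusp4, Dusp5 and Dusp6 read 38, 119 and 99 in KO, against 891, 677 and 872 in WT, while Dusp8 and Dusp16 stood higher in KO after hCG.

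Dusp6, which encodes the cytoplasmic ERK phosphatase, had intensities of 26, 186 and 99 in KO at 0 h, 2.5 h and 4 h, against 94, 404 and 872 in WT. KO was the lower genotype at each time, and its highest array was that at 2.5 h while in WT it was that at 4 h. KO was 3.62-fold lower than WT at 0 h, 2.17-fold lower at 2.5 h and 8.81-fold lower at 4 h. The KO cells had a response of their own: at 2.5 h Dusp6 was 7.15-fold above 0 h in KO and 4.30-fold above it in WT, and at 4 h it was 3.81-fold and 9.28-fold above. The KO value at 0 h lay under the floor, so its folds depend on the background. With 16 added to each intensity, the log2 responses at 2.5 h were 2.27 in KO and 1.93 in WT. Without it they were 2.84 and 2.10, in the same order. An added 16 is well under the floor of 64, so it cannot settle which genotype had the larger response. From 2.5 h to 4 h, Dusp6 differed by -0.91 (log2) in KO, under the 2-fold size, and by 1.11 in WT.

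Dusp5, the nuclear ERK phosphatase, read 102, 150 and 119 in KO and 150, 364 and 677 in WT. The highest KO value equalled the WT value before hCG. The response at 4 h was 0.22 (log2) in KO and 2.17 in WT, and KO was 2.43-fold lower than WT at 2.5 h and 5.69-fold lower at 4 h. At 0 h the genotypes differed by -0.56 (log2), under the 2-fold size.

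The other ERK-selective members did not follow Dusp5 and Dusp6. Dusp7, a cytoplasmic ERK phosphatase, had intensities of 525, 301 and 266 in KO and 425, 295 and 263 in WT. In both genotypes the 0 h value was the highest, and the genotypes stood within 1.02-fold of each other at 2.5 h and 1.01-fold at 4 h. A further Dusp7 probe set over the floor gave 360, 210 and 188 in KO and 275, 169 and 196 in WT. Dusp9, the remaining cytoplasmic member, read 32, 43 and 46 in KO and 66, 61 and 72 in WT by its brightest probe set. Its KO value was 2.06-fold lower at 0 h, with the WT array barely over 64 and the mean under the floor, and the other probe sets gave 1.24-fold and 1.85-fold lower. All 3 Dusp9 probe sets were lower in KO at each time, at levels close to background.

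Among the broader members, Dusp4 had the widest gap between genotypes. Dusp4, a nuclear phosphatase of ERK, JNK and p38, read 44, 38 and 38 in KO and 69, 397 and 891 in WT. KO values were all under the floor, and no KO array exceeded the WT array at 0 h. KO was 10.4-fold lower than WT at 2.5 h and 23.4-fold lower at 4 h, folds that rest on KO values at background level. The WT level stood 5.75-fold above 0 h at 2.5 h and 12.9-fold at 4 h.

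Dusp1, the immediate early nuclear phosphatase of the family, was present before hCG and responded in both genotypes, at 415, 767 and 979 in KO and 569, 1886 and 1276 in WT. The 2.5 h array was the highest in WT and the 4 h array in KO, with steps between these times under the 2-fold size in both genotypes. KO was 2.46-fold lower at 2.5 h and 1.30-fold lower at 4 h, when the log2 responses were 1.24 in KO and 1.17 in WT. Dusp2, a nuclear phosphatase best known from activated leukocytes, stayed between 33 and 38 in KO and between 42 and 50 in WT, all under the floor.

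Dusp8, which encodes a phosphatase of JNK and p38, was the member that exceeded WT in KO after hCG by at least 2-fold, with 157, 1010 and 1122 in KO and 176, 452 and 323 in WT. Before hCG the genotypes were within 1.12-fold. KO was 2.23-fold higher at 2.5 h and 3.47-fold higher at 4 h, and the log2 responses at 4 h were 2.84 in KO and 0.88 in WT. A second Dusp8 probe set gave 73, 602 and 765 in KO and 99, 238 and 97 in WT, with KO 7.89-fold higher at 4 h. The third read 75, 94 and 94 in KO and 84, 99 and 91 in WT and showed no such difference, with -0.075 (log2) at 2.5 h and 0.047 at 4 h for KO minus WT.

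Dusp16, a phosphatase of JNK, had intensities of 374, 1091 and 1078 in KO and 336, 652 and 551 in WT. It was 1.67-fold higher in KO at 2.5 h and 1.96-fold at 4 h, just under the 2-fold size, and its level after hCG was 2.92-fold and 2.88-fold the 0 h level in KO. Its second probe set stayed between 16 and 27 in KO and between 17 and 24 in WT. Dusp10, a phosphatase of JNK and p38, went the other way, at 91, 81 and 71 in KO and 81, 134 and 187 in WT. KO was 2.63-fold lower at 4 h, while a second Dusp10 probe set, with 20, 20 and 22 in KO and 20, 32 and 46 in WT, was under the floor on all 6 arrays.

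**Figure D2:**
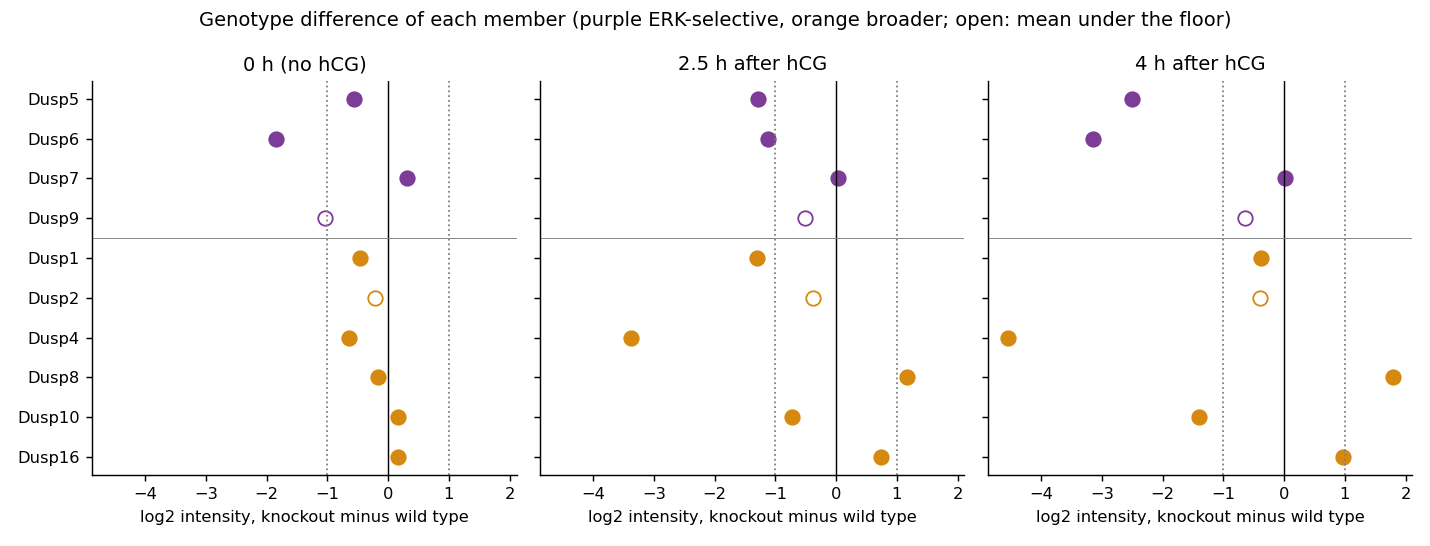
Log2 intensity difference, KO minus WT, of each member at 0 h, 2.5 h and 4 h, with ERK-selective members in purple, broader members in orange and open circles for means under the floor. Dotted lines mark 2-fold; at 4 h Dusp4 (-4.55), Dusp6 (-3.14), Dusp5 (-2.51) and Dusp10 (-1.40) lie beyond it on the lower side and Dusp8 (1.80) on the higher side.

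Of the 8 members over the floor, 1 (Dusp6) was at least 2-fold lower in KO than in WT at 0 h and 0 were higher, where 0.852% of all genes over the floor were lower and 0.681% higher. At 2.5 h, 4 were lower (Dusp1, Dusp4, Dusp5 and Dusp6) and 1 was higher (Dusp8), against 2.75% and 1.44% of all genes. At 4 h, 4 were lower (Dusp4, Dusp5, Dusp6 and Dusp10) and 1 was higher (Dusp8), against 3.51% and 5.00%. Dusp4, Dusp5 and Dusp6 were thus lower at both times after hCG, and Dusp1 and Dusp10 at a single time each. Dusp4 is in these counts through its WT arrays alone. With the mean of all probe sets, Dusp8 fell short of 2-fold at 2.5 h (0.81, log2) and Dusp10 was under the floor.

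The ERK-selective and the broader members were each split. Over all 4 ERK-selective members the median KO minus WT difference was -0.80, -0.81 and -1.58 (log2) at 0 h, 2.5 h and 4 h, with Dusp7 near 0 after hCG. Over all 6 broader members it was -0.19, -0.55 and -0.39, with Dusp4 far below and Dusp8 and Dusp16 above. Over the 3 ERK-selective members past the floor, without Dusp9, it was -0.56, -1.12 and -2.51, and over the 5 broader ones, without Dusp2, -0.16, -0.73 and -0.38. The medians of all genes over the floor were -0.03, 0.14 and 0.20. The lowest and highest values at 4 h were -3.14 and 0.02 among ERK-selective members and -4.55 and 1.80 among broader members, so the ranges of the classes overlapped. With so few genes per class and no replicates, no test of the class difference was run.

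After hCG in WT, 5 of the 8 members over the floor stood at least 2-fold above 0 h at 2.5 h (Dusp1, Dusp4, Dusp5, Dusp6 and Dusp8) and 0 lower, against 3.29% and 1.0% of all genes. At 4 h, 5 were higher (Dusp1, Dusp4, Dusp5, Dusp6 and Dusp10) and 0 lower, against 4.91% and 9.11%. With the mean of probe sets, Dusp8 lost its WT call at 2.5 h (0.95, log2) and Dusp10, then under the floor, its call at 4 h. Cyclic loess added Dusp16 at 2.5 h (1.17) and Dusp8 at 4 h (1.08) in WT. Between 2.5 h and 4 h in WT, Dusp4 (2.24-fold) and Dusp6 (2.16-fold) were higher at 4 h and 0 members lower, against 1.17% and 1.87% of all genes. In KO, 3 members (Dusp6, Dusp8 and Dusp16) stood at least 2-fold above 0 h at 2.5 h and 0 below, against 3.35% and 3.57% of all genes. At 4 h these and Dusp1 were higher in KO and 0 lower, against 3.87% and 4.56%. Between 2.5 h and 4 h in KO, 0 members were past the 2-fold size either way, against 0.421% of genes higher and 0.484% lower. The comparisons of each genotype share that genotype's 0 h array.

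**Figure D3:**
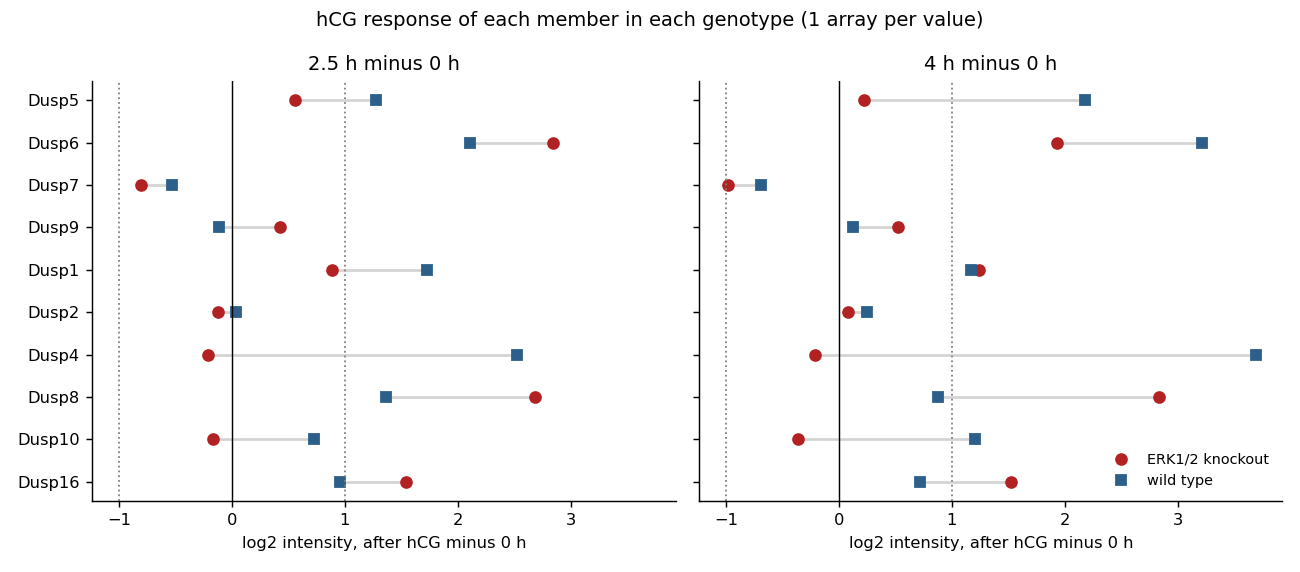
Log2 intensity after hCG minus 0 h for each member, with KO as red circles and WT as blue squares, at 2.5 h and 4 h. At 4 h the KO response lies left of the WT response for Dusp4 (-0.21 and 3.69), Dusp5 (0.22 and 2.17), Dusp6 (1.93 and 3.21) and Dusp10 (-0.36 and 1.21), and right of it for Dusp8 (2.84 and 0.88) and Dusp16 (1.53 and 0.71).

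The shared hCG response, the average of the later arrays less 0 h in an additive model, was tested with limma on all 6 arrays and 11153 genes, with Benjamini-Hochberg adjustment. The residual of this fit is how the response varies between genotypes and times. With 1 array per group, variation from animal to animal is mixed into it and cannot be estimated apart. Dusp6 rose by 2.52 ± 0.39 (log2 ± SE, adjusted p = 0.0241), Dusp8 by 1.94 ± 0.38 (adjusted p = 0.0352), Dusp1 by 1.25 ± 0.22 (adjusted p = 0.0304) and Dusp16 by 1.19 ± 0.20 (adjusted p = 0.0276), in 4 of 4 arrays after hCG for each of these genes. Dusp7 fell by 0.75 ± 0.15 on the log2 scale (adjusted p = 0.0352), also in 4 of 4 arrays. Thus 4 of 8 members tested rose and 1 fell, against 3.44% and 6.73% of all genes (384 higher and 751 lower, and 394 and 315 with cyclic loess). Dusp5 (adjusted p = 0.122), Dusp4 (adjusted p = 0.238) and Dusp10 (adjusted p = 0.491) did not pass. With the mean of all probe sets of a gene, 2 members (Dusp1 and Dusp6) passed, and with no floor, where 18194 genes were tested, 0 did, with adjusted p of 0.0538 to 0.0778 for the 5. Dusp7 was also lost with cyclic loess (limma adjusted p = 0.0697) and without the 2.5 h arrays (limma adjusted p = 0.0832). Dusp5 passed without the 4 h arrays (limma adjusted p = 0.0111), where 1462 of 11153 genes passed.

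The genotype difference over the 3 times passed for 0 of 8 members by limma with Benjamini-Hochberg adjustment, against 0.0359% of all genes. The residual of the additive fit is how the genotype difference varies between times. A gap that opens only after hCG thus raises its own error, and 0 of 8 does not show that there was no difference. An unadjusted p under 0.05 was found for 6 of 8 members and for 1940 of all 11153 genes. The estimates were -2.86 ± 0.68 (log2 ± SE) for Dusp4, -2.04 ± 0.36 for Dusp6 and -1.45 ± 0.35 for Dusp5, with adjusted p of 0.187, 0.121 and 0.192, and KO was lower at 3 of 3 times for each. Without the 0 h arrays, Dusp4 (-3.97, adjusted p = 0.0156) and Dusp8 (1.48, adjusted p = 0.0416) passed this limma test, without the 4 h arrays Dusp4, Dusp5 and Dusp6 passed, and without the 2.5 h arrays Dusp6 did, with adjusted p of 0.00117 to 0.0432. Each of these fits had 1 residual degree of freedom, and 471, 245 and 16 of 11153 genes passed without 0 h, 4 h and 2.5 h. Dusp4 was among the genes tested only through its WT arrays, so its estimates and passes rest on KO values at background level. The difference in hCG response between genotypes was tested as an interaction, with both times after hCG in the same cell. It passed for 0 of 8 members, against 0.00% of all genes. Here 4 of 8 members and 1015 of all genes had an unadjusted p under 0.05. Its estimates were -3.32 ± 0.68 for Dusp4 and 1.64 ± 0.35 for Dusp8 (limma adjusted p of 0.510 and 0.516). For Dusp6 the estimate was -0.27 ± 0.82 (limma adjusted p = 0.902). It averages KO minus WT responses of 0.74 (log2) at 2.5 h and -1.28 at 4 h, which have opposite signs. Both rest on the KO value at 0 h, which lay under the floor. The residual of this fit is the step between 2.5 h and 4 h, so a change between these times counts as error.

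**Figure D4:**
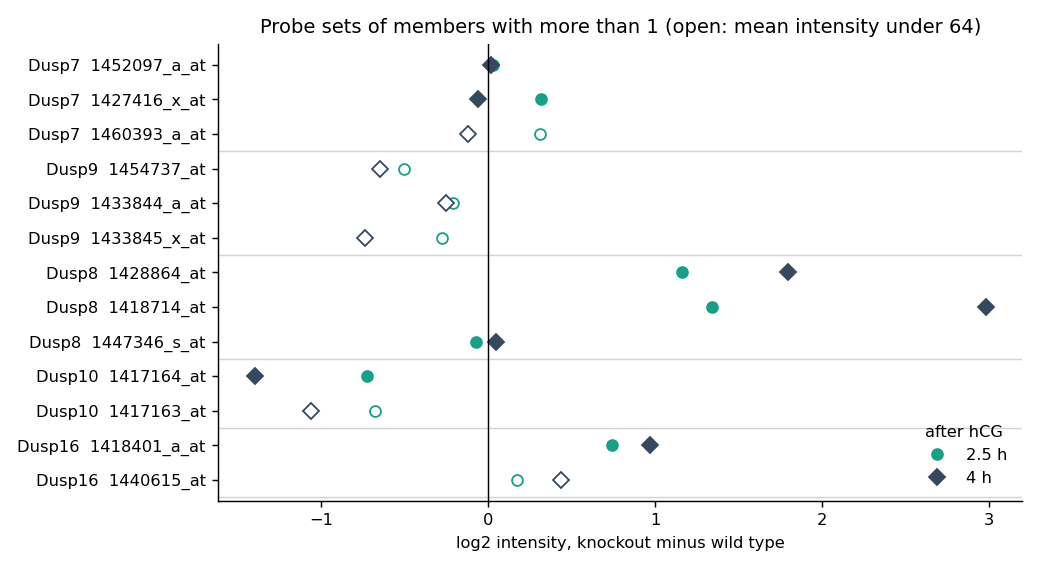
Log2 intensity difference, KO minus WT, at 2.5 h (circles) and 4 h (diamonds) for every probe set of the 5 members with more than 1, open where the mean intensity was under 64. For Dusp8, 2 probe sets lie above 1 at both times and the third at -0.075 and 0.047.

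Genes with the most similar pattern over the 6 arrays were looked up among 3064 other genes over the floor that varied at least 2-fold, as a description with n = 6 arrays that share the same design. Nearest to Dusp4 were Slitrk6, Il1r1, the interleukin-1 receptor, and Rragd, a GTPase of nutrient signalling (Pearson r of 0.998, 0.997 and 0.996). Il1r1 read 699, 621 and 710 in KO at 0 h, 2.5 h and 4 h and 957, 2340 and 4043 in WT. Nearest to Dusp5 were Pfkp, a phosphofructokinase of glycolysis, Ptprn and Serpinb9b (0.994, 0.991 and 0.990), and nearest to Dusp6 were Usp14, a deubiquitinase of the proteasome, Tcim and Srsf9, a splicing factor (0.994, 0.985 and 0.982). Usp14 had a much smaller range, with 488, 795 and 721 in KO and 668, 1078 and 1243 in WT.

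Dusp8 and Dusp16 shared Ccnl1, which encodes cyclin L1, and Sh3bp5, an adaptor protein that binds JNK, among their nearest 3 (r of 0.989 to 0.997). Sh3bp5 read 787, 3105 and 2692 in KO and 713, 1608 and 1263 in WT. Dusp1 was nearest to Csrnp1, Rrad, a Ras-related GTPase, and Vegfa, the angiogenic growth factor (0.994, 0.988 and 0.987), with Vegfa at 355, 636 and 742 in KO and 474, 1263 and 1126 in WT. Dusp10 was nearest to Rnf125, a ubiquitin ligase, which read 157, 98 and 89 in KO and 112, 648 and 2444 in WT (0.995).

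Other genes of the pathway were taken from lists, also chosen with earlier results of these data known. Their counts beside shares of all genes are descriptions. Of all genes over the floor, 3.51% were at least 2-fold lower in KO at 4 h and 5.00% higher. In the limma hCG test, 3.44% of all genes rose and 6.73% fell. Among 10 atypical dual-specificity phosphatases over the floor, which are relatives without the kinase-docking domain of the members, 0 were at least 2-fold lower in KO at any time and 1 was higher at 4 h. That gene was Dusp3, with 566, 1165 and 1236 in KO and 533, 651 and 461 in WT (2.68-fold higher at 4 h). Dusp14 read 273, 139 and 128 in KO and 174, 114 and 96 in WT and fell by 0.88 on the log2 scale in the hCG test (limma adjusted p = 0.0276), as 1 of 10 did. Of 9 other phosphatases that act on MAP kinases or their activators, among them subunits of protein phosphatase 2A, 0 were past the 2-fold size in KO at any time and 0 passed the limma hCG test, where 2 of them and 3359 of all 11153 genes had an unadjusted p under 0.05.

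The Sprouty and SPRED genes, which inhibit signalling upstream of ERK, were listed with ETV genes and Il17rd. Over the floor were 6 genes, Spry1, Spry2, Spry4, Spred1, Spred2 and Il17rd, and no ETV gene. Of these, 2 were at least 2-fold lower in KO at 4 h and 0 higher, against 3.51% and 5.00% of all genes. Spry2 read 102, 209 and 291 in KO and 179, 627 and 883 in WT, and Spred1 read 676, 930 and 938 in KO and 1005, 1538 and 1932 in WT. Spry2 and Spred2 rose in the hCG test (log2 estimates of 1.66 and 1.63, limma adjusted p of 0.0160 and 0.0121). Il17rd, an inhibitor of growth factor receptor signalling, fell (-1.18, limma adjusted p = 0.0266). Spred1, Spry1 and Spry4 did not pass (0.62, -0.39 and -0.66, limma adjusted p of 0.0624, 0.293 and 0.0633). Of all genes, 3.44% rose and 6.73% fell in this test. In the list of immediate early genes, 9 of 25 stood at least 2-fold lower in KO at 4 h and 3 higher, and 9 rose and 1 fell in the limma hCG test. Egr1, a transcription factor gene induced through ERK, read 273, 259 and 234 in KO and 2152, 9767 and 5596 in WT, while Jun, a subunit of AP-1, read 416, 2363 and 3150 in KO and 400, 899 and 517 in WT. Of 17 cAMP and CREB targets, 3 were lower and 3 higher at 4 h, and 7 rose in the hCG test. Among them Pde4d, which encodes a cAMP phosphodiesterase, read 37, 772 and 597 in KO and 60, 278 and 226 in WT. Its relative Pde4b lay the other way, with 21, 236 and 193 in KO and 58, 485 and 985 in WT.

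Kinases of the JNK and p38 cascade, which include the substrates of Dusp8, Dusp10 and Dusp16, were listed with Mapk7 and Map2k5 of the ERK5 cascade. The list had 16 genes over the floor. Of these, 2 were at least 2-fold higher in KO at 4 h and 1 lower, against 5.00% and 3.51% of all genes. In the limma hCG test 1 rose (Mapkapk3) and 2 fell (Map2k6 and Mapk9), against 3.44% and 6.73% of all genes. Mapk10, which encodes a JNK, read 170, 227 and 569 in KO and 159, 142 and 139 in WT. Mapkapk3, a kinase activated by p38, read 227, 320 and 385 in KO and 453, 1371 and 1331 in WT. Among 14 genes of Ras and the ERK cascade, 1 was higher and 1 lower in KO at 4 h, namely the scaffold gene Ksr1 (634 in KO against 118 in WT) and Rras2, a Ras-related GTPase (682 in KO against 2408 in WT). The adaptor gene Grb2 was the 1 of these 14 that rose with hCG.

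**Figure D5:**
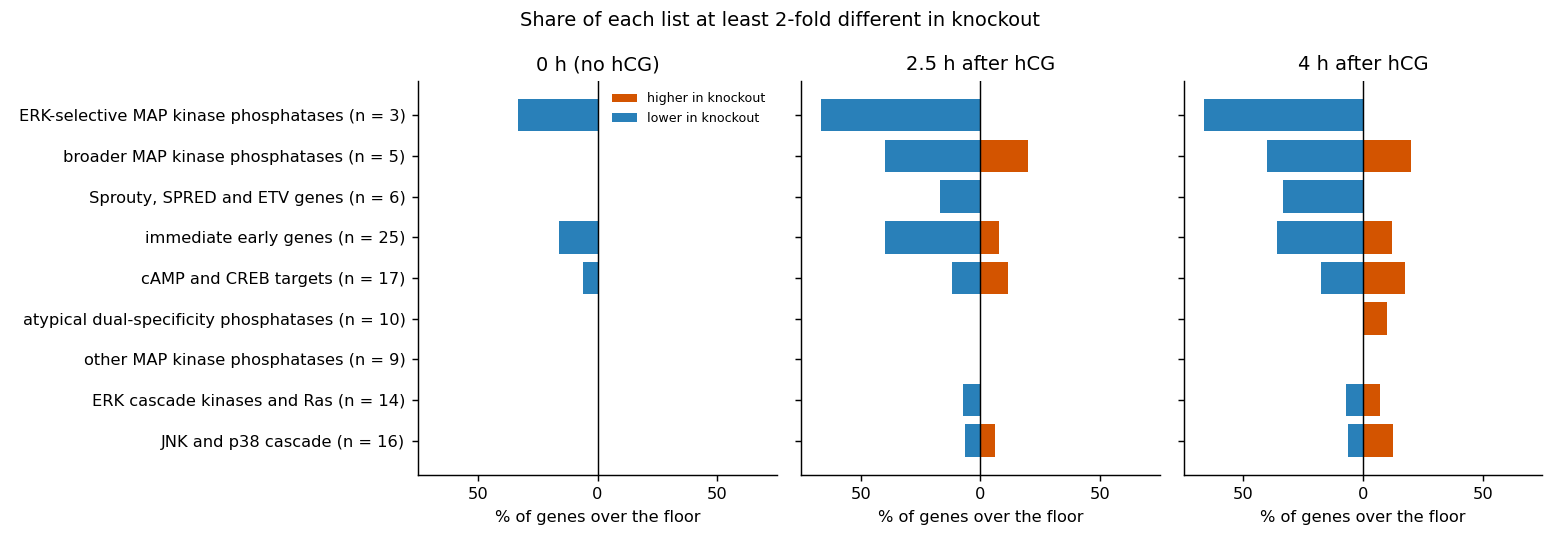
Percent of genes over the floor in each list that were at least 2-fold higher (orange, right) or lower (blue, left) in KO than in WT at 0 h, 2.5 h and 4 h. At 4 h, 4 of the 8 MAP kinase phosphatases, 9 of 25 immediate early genes and 0 of 9 other phosphatases were lower. Of all genes over the floor, 3.51% were lower, so the 0 of 9 is near that share.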

How the data were processed

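Affymetrix arrays of 6 samples were used, 1 per genotype and time, so precision is limited by the number of arrays. The authors made 1 intensity per probe set and array with RMA in affy, according to the submitters' processing notes, whose versions are not stated. Deposited values were linear and whole, between 9 and 59425, and were turned to log2. The platform annotation gave 1 symbol for 34958 of 45101 probe sets, several for 932 and none for 9211, and 34754 matched a RefSeq entry, with 0 symbols altered.

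A gene was read from its probe set of highest mean log2. Pairs of arrays were compared by a rule of size (log2 difference of at least 1, brighter array at log2 6 or more, mean log2 of at least 6). limma 3.58.1 in R 4.3.3 tested hCG and genotype in an additive model and the interaction in a model of 4 cells, over 11153 genes, each with 2 residual degrees of freedom. Named genes were all members, up to 4 called genes with the largest difference per list, and the 3 genes of highest Pearson r per varying member. Members and lists were chosen with earlier results of these data known. Alternatives were the mean of probe sets, cyclic loess, no floor or log2 7, 16 added to each intensity, a trended robust prior and each time left out.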

Additional observations from a re-analysis of the deposited data

Results flagged for a closer look

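Dusp4 and Dusp10 were marked because both arrays after hCG lay above 0 h in WT and below it in KO. The mean response of Dusp4 in KO minus that in WT was -3.32 (log2), with KO values of 44, 38 and 38 that were all under the floor. For Dusp10 the same difference was -1.23, with KO values of 91, 81 and 71. The limma interaction gave adjusted p of 0.510 for Dusp4 and 0.535 for Dusp10 over 11153 genes, so neither difference passed that test.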

How the results depend on the processing

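Counts of members stayed within 1.5 times in 58 alternatives and moved further in 10. Without a floor, 2 members (Dusp6 and Dusp9) passed the 2-fold size in KO against WT at 0 h. A floor at log2 7, for the gene's mean and for the brighter array, left 0 there, 3 for KO against WT at 4 h, 3 for WT at 4 h against 0 h and 1 for WT at 4 h against 2.5 h. Members passing the genotype test numbered 2, 1 and 3 without 0 h, 2.5 h and 4 h, and those passing the hCG test 2 with the mean of probe sets and 0 without a floor. Over all genes, limma called 4 for genotype, with 0 under the mean of probe sets, cyclic loess, no floor or 16 added, 37 with a floor at log2 7, 41 with a trended robust prior and 471, 16 and 245 without 0 h, 2.5 h and 4 h. For hCG it called 1135, with 701, 709, 432 and 736 under the mean of probe sets, cyclic loess, no floor and without 2.5 h. Of single member differences, 91 kept their call, 12 fell short and 1 reversed, Dusp8 at 2.5 h (-0.075 log2, KO minus WT) by the third probe set. The causes were not tested. Of single limma values, 158 kept their side of the threshold, 10 lost it and 7 gained it. The additive model already compared the genotypes within each time. Pairing by replicate number was not possible, nor could a replicate be left out, because each group held 1 array.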
